A study of Homo sapiens with 12 samples.

Results

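Heat shock proteins are molecular chaperones, and 10 of their genes are described here across all libraries of a polysome profiling experiment in H1299 cells. They were chosen by name: HSPA1A, HSPA1B, HSPA8, HSPH1, DNAJB1, HSP90AA1, HSP90AB1, HSPB1, HSPD1 and HSPE1. All 10 are rows of the deposited expression table, which holds 16172 genes, and all 10 were among the 10605 genes tested. No measured value entered the choice of these names, but earlier results from this dataset were known when they were chosen.

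H1299 (NCI-H1299) is an established line of human non-small-cell lung carcinoma. It received either siEIF3Gs, siRNAs in equal parts that target EIF3G, a subunit of the translation initiation factor eIF3, or a control siRNA, siCtrl, and lysis followed 72 h later. Part of each lysate was kept as input, and the rest was run on a sucrose gradient from which the polysomal fraction, mRNA bound by several ribosomes, was collected. The 12 libraries, made from RNA selected with oligo(dT), form 4 groups of 3: siCtrl input, siEIF3Gs input, siCtrl polysomal and siEIF3Gs polysomal. All groups share the cell line and a transfection, and there is no untransfected group. The labels do not say that the 3 libraries of a group are separate cultures, so each p-value measures only the spread between these libraries, which may be technical.

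Chaperones bind unfolded or newly made proteins and help them fold. The HSP70 proteins work in ATP-driven cycles with J proteins, which deliver clients, and with nucleotide exchange factors of the HSP110 type, while HSP90 acts later on partly folded clients such as kinases and receptors. Some of their genes are expressed at all times, and others are switched on by the transcription factor HSF1 when unfolded proteins accumulate, through heat shock elements, which are inverted repeats of short GAA units, in their promoters.

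The knockdown was visible in every siEIF3Gs library: EIF3G was at 877.6 to 1158 TPM (transcripts scaled to the same fixed total in every library) in siCtrl input and at 47.3 to 84.7 in siEIF3Gs input, a log2 change of -4.03 (SE 0.29, limma adjusted p = 3.71e-05). The change was -4.02 in polysomal RNA (adjusted p = 3.76e-05). KRT18 (435.3 to 1934 TPM) and VIM (265 to 3105 TPM) were detected in every library, and the epithelial marker CDH1 was at 0 in 10 of 12. ALB, COL1A1 and PECAM1, which mark other cell types, stayed at or below 0.10 TPM, while ACTA2 was at 2.69 to 9.23 and MBP at 0.61 to 5.42 TPM. PTPRC, CD3E and HBB have no row in the deposited expression table. In 3 libraries the mean correlation over genes, computed without the 10 heat shock genes, was higher with libraries of the other fraction than with their own group: siCtrl input 1 (0.957 against 0.922), siEIF3Gs input 2 (0.958 against 0.928) and siEIF3Gs polysomal 3 (0.953 against 0.949). Results are given with and without these 3 libraries where that matters. Because they were set aside for their likeness to the other fraction, leaving them out by itself favours a difference between fractions, and such values are descriptions. TPM are shares of a library and the depth behind them is unknown, so fewer copies of an mRNA and more of all others cannot be told apart. Nor can fewer cells holding an mRNA and less of it in each cell.

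The promoters are shown first because heat shock elements are the sites that HSF1 binds; the search below is for exact letter matches, and a gene without a match may still be an HSF1 target. RefSeq windows of build GRCh38.p14 were available for all 10 genes (16 windows), and the 250 bases before each start were searched. A heat shock element of 3 units was searched as GAA, TTC and GAA, or as TTC, GAA and TTC, with 2 free bases between units; each form is the reverse complement of the other, so both strands are covered. It occurred in 0.441% of all 35116 windows of this kind. Among the 16 windows of the 10 genes it occurred in a single window each of 4 genes: HSPA8, HSP90AA1, HSP90AB1 and HSPD1. HSPA8 and HSP90AB1 each held a pair of them. In the sequences below, read 5′ to 3′ on the strand of the gene, capitals mark the element.
HSPA8, chr11:123062346-123062375, minus strand: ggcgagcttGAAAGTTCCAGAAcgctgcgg
HSPA8, chr11:123062171-123062200, minus strand: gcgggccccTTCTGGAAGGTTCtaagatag
HSP90AA1, chr14:102087112-102087141, minus strand: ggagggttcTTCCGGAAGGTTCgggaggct
HSP90AB1, chr6:44247769-44247798, plus strand: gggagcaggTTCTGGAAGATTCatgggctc
HSP90AB1, chr6:44247822-44247851, plus strand: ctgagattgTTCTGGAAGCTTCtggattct
HSPD1, chr2:197500061-197500090, minus strand: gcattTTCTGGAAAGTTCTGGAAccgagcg

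In HSPD1 the capitals span 2 overlapping matches, and they lie upstream of the downstream one of its 2 annotated starts. The other start of HSPD1 lies 105 bases from the start of HSPE1 on the opposite strand, so these genes are arranged head to head, and no match was found in that window of HSPD1 or in the window of HSPE1. HSPB1, DNAJB1, HSPA1A and HSPA1B held the shorter core GAANNTTC, which is its own reverse complement, lies inside either form of the longer element and occurred in 5.78% of all windows. In DNAJB1 it occurred at 2 places, both in a single one of its 3 windows. The window of HSPH1 held none of these letters, which says nothing about HSF1 outside it.
HSPB1, chr7:76302480-76302509, plus strand: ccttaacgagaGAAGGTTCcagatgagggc
DNAJB1, chr19:14518456-14518485, minus strand: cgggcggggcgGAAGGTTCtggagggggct
DNAJB1, chr19:14518426-14518455, minus strand: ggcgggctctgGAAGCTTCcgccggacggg

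HSPA1A and HSPA1B are neighbouring copies that encode the same stress-inducible HSP70. Their upstream sequences are shown at greater length so that the promoters of the copies can be compared: 235 of 249 aligned upstream bases (94.4%) were the same. Capitals mark GAANNTTC and, nearer to the start, TATAAA, which was searched on the gene's strand only and occurred in 6.80% of all windows.
HSPA1A, chr6:31815423-31815542, plus strand: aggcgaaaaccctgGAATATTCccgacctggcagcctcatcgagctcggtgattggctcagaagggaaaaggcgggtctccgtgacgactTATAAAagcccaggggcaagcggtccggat
HSPA1B, chr6:31827618-31827737, plus strand: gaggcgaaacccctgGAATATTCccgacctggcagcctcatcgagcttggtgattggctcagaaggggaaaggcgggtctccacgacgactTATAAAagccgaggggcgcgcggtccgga

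None of the 10 genes passed the test for a change with EIF3G knockdown, in input or in polysomal RNA (limma, Benjamini-Hochberg adjusted p under 0.05, where 0.0189% of all genes passed in each). HSPA8, HSP90AA1 and HSP90AB1, chaperones of the cytosol, and HSPD1, the mitochondrial HSP60, had higher TPM in all 3 siEIF3Gs polysomal libraries than in any siCtrl polysomal library, and HSPB1 and HSPE1 had lower TPM in all 3. The groups that did not overlap thus numbered 4 higher and 2 lower among 10 genes, against 21.6% and 7.61% of all genes tested. In input RNA the groups overlapped for all 10, where 3.68% of all genes did not overlap.

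Within control cells, 6 of the 10 passed the test between polysomal and input RNA (36.9% of all genes did): HSPH1, HSP90AA1, HSP90AB1, HSPD1 and HSPA8 were lower on polysomes and HSPB1 was higher. In knockdown cells none of the 10 passed, with 3.14% of all genes passing and none of the 10 at an unadjusted p under 0.05 (20.5% of all genes). That contrast does not show that the fractions differ less after knockdown: the difference between the siRNA effects in the fractions was past the threshold for none of the 10, as for 0% of all genes, and HSP90AA1 alone had an unadjusted p under 0.05 (0.179% of all genes).

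**Figure D1:**
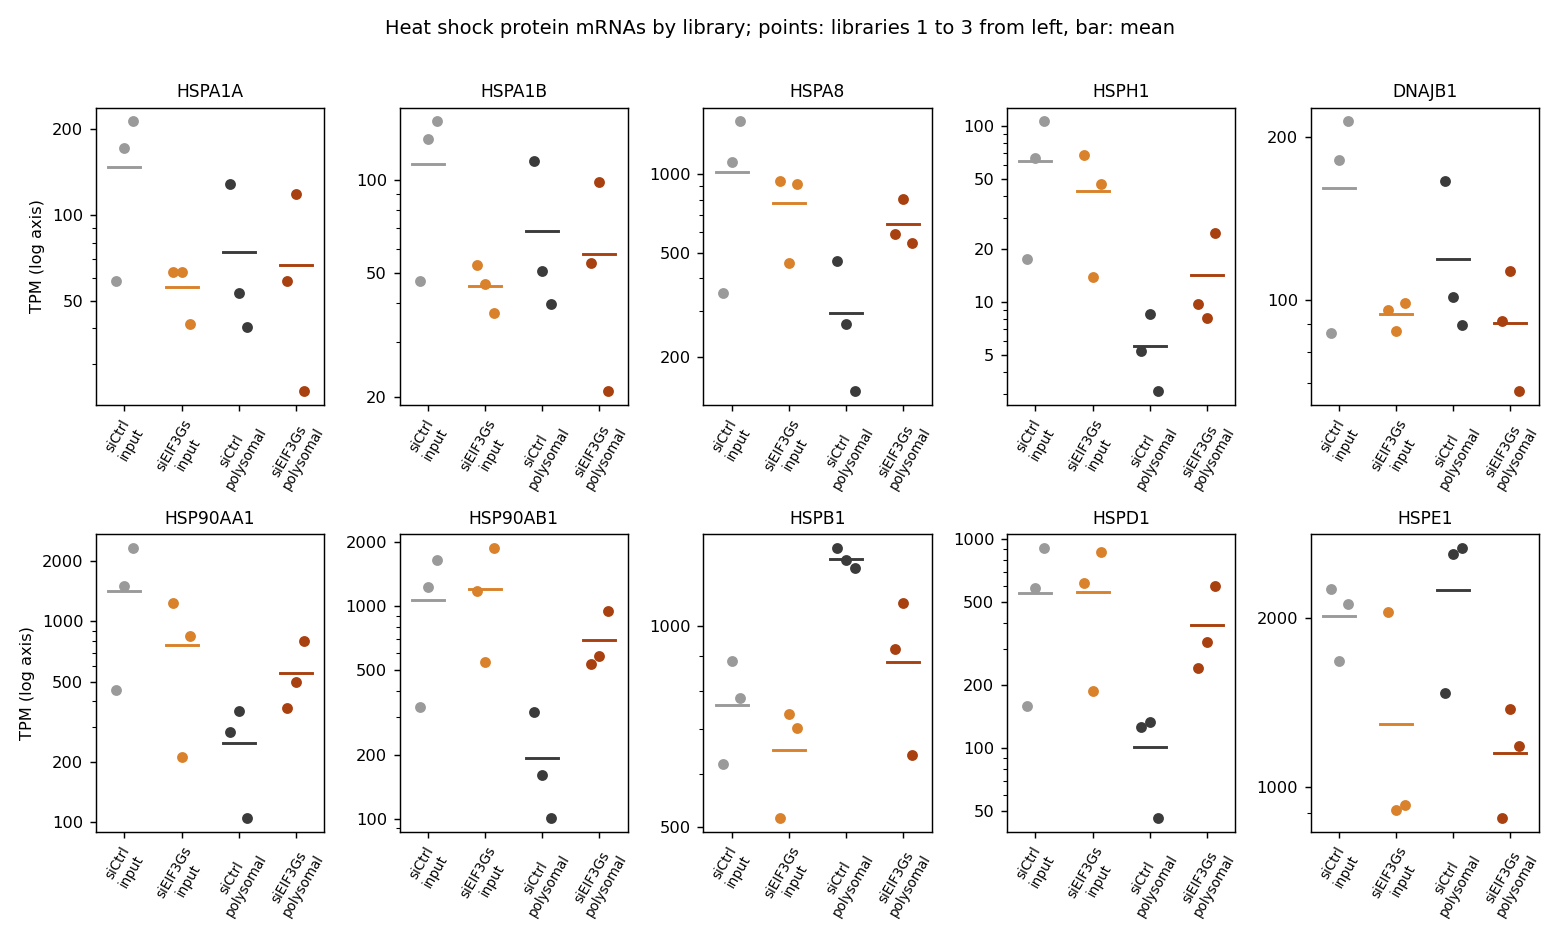
TPM of the 10 heat shock protein mRNAs (log axis, a scale for each panel) in the 4 groups; each point is a library, with libraries 1 to 3 from left to right, and each bar is the mean of 3. HSPA8, HSP90AA1, HSP90AB1 and HSPD1 lie higher in all siEIF3Gs polysomal than in all siCtrl polysomal libraries, and HSPB1 and HSPE1 lie lower.

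HSPA1A was at 58.9, 172 and 213 TPM in siCtrl input libraries 1, 2 and 3 and at 63.0, 63.1 and 41.6 TPM in siEIF3Gs input. Control libraries 2 and 3 lay above all knockdown libraries, and control library 1 lay among them. HSPA1B was at 47.4, 135 and 154.5 TPM in siCtrl input and at 53.3, 46.3 and 37.1 TPM in siEIF3Gs input, with the same order of libraries in the control group. The log2 change of TPM + 1 was -1.22 for HSPA1A (SE 0.60, 95% interval -2.51 to 0.07) and -1.13 for HSPA1B (SE 0.57), and limma's adjusted p was 0.999993 for both. These were the lowest values of the 10 in input RNA.

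On polysomes HSPA1A was at 129, 53.2 and 40.5 TPM with siCtrl and at 58.6, 118 and 24.05 TPM with siEIF3Gs. HSPA1B was at 115, 50.7 and 39.7 TPM with siCtrl and at 53.8, 98.8 and 20.8 TPM with siEIF3Gs. The groups overlapped fully for both, with a single high library in each group. The log2 changes were -0.24 (SE 0.60) for HSPA1A and -0.34 (SE 0.57) for HSPA1B, and without siEIF3Gs polysomal library 3 they were 0.35 and 0.24, so no direction can be given.

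The reads of HSPA1A and HSPA1B cannot be fully separated, and their split is an estimate. The ratio of HSPA1A to HSPA1B stayed between 1.02 and 1.38 in the 12 libraries while each gene varied 7.42-fold or more. With both genes summed, limma gave a log2 change of -1.19 in input (SE 0.58, adjusted p = 0.999993), and on polysomes one of -0.29 (SE 0.58, adjusted p = 0.788).

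HSPA8 encodes the constitutive cytosolic HSP70 (HSC70). It was at 351, 1112 and 1598 TPM in siCtrl input and at 943, 459 and 922 TPM in siEIF3Gs input, where the knockdown values lay inside the wide range of the control. On polysomes it was at 466, 267 and 148 TPM with siCtrl and at 592, 803 and 546 TPM with siEIF3Gs. All knockdown libraries lay above all control libraries here, with means of 293.8 ± 161 and 647 ± 137 TPM (SD, n = 3).

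For HSPA8 the log2 change with knockdown was -0.21 in input (SE 0.52, 95% interval -1.34 to 0.92) and 1.27 in polysomal RNA (SE 0.52, unadjusted p = 0.0305, limma adjusted p = 0.650). In control cells HSPA8 was 3.23-fold lower in polysomal than in input RNA on the log2(TPM + 1) scale (log2 change -1.69, SE 0.52, adjusted p = 0.0394), although siCtrl input library 1 lay within the polysomal range. It was not past the threshold after the libraries were scaled by median-of-ratios size factors (-0.59, adjusted p = 0.259). In knockdown cells the difference was -0.21 (SE 0.52, adjusted p = 0.777).

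A ratio of genes within a library does not depend on how the library is scaled, so the stress-inducible HSP70 was also set against the constitutive one. The sum of HSPA1A and HSPA1B was 0.523, 0.389 and 0.543 times HSPA8 in siCtrl polysomal libraries and 0.190, 0.270 and 0.0821 times in siEIF3Gs polysomal libraries. All knockdown values were lower than all control values, by 1.57 on the log2 scale (2.97-fold, exact two-sided permutation p = 0.1). In input RNA the ratio was 0.303, 0.276 and 0.230 with siCtrl and 0.123, 0.238 and 0.0854 with siEIF3Gs, with overlap (log2 difference -0.98, exact permutation p = 0.2). Within control cells it was higher on polysomes than in input in all libraries (log2 difference 0.84, exact permutation p = 0.1). With 3 libraries against 3, the exact permutation test cannot give less than p = 0.1, and over the 12 tests of 3 ratios the lowest adjusted p by Benjamini-Hochberg was 0.24.

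**Figure D2:**
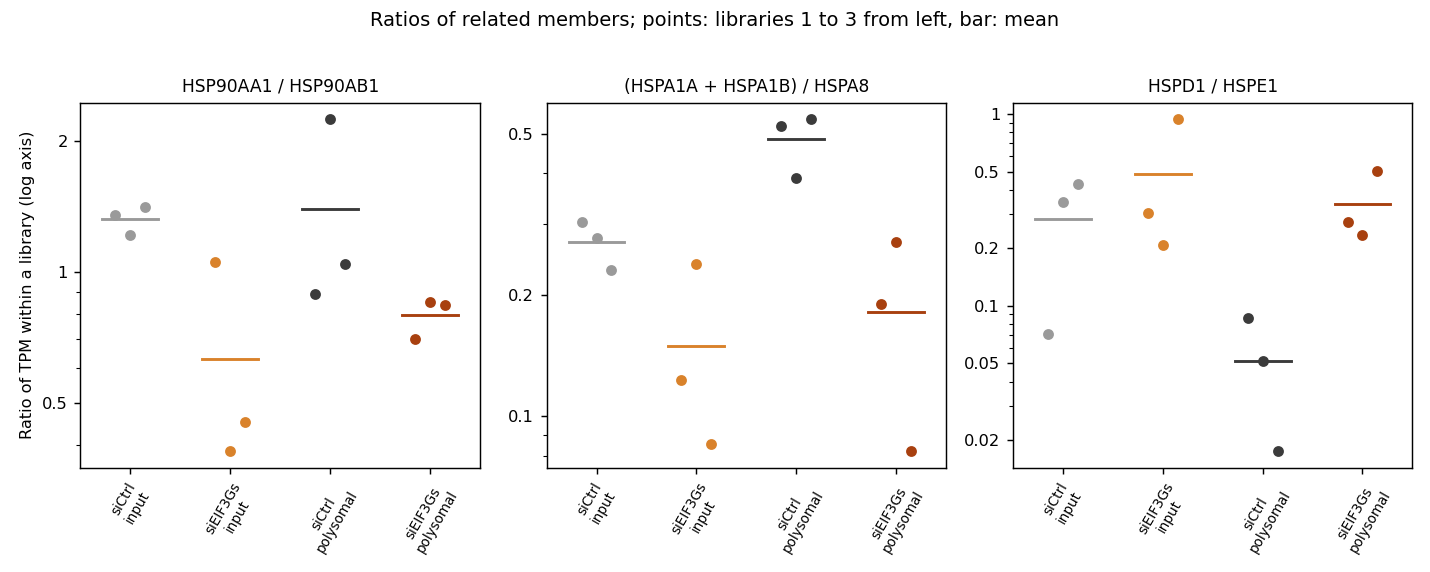
Ratios of TPM between related heat shock protein mRNAs within each library (log axis), for HSP90AA1 to HSP90AB1, for the sum of HSPA1A and HSPA1B to HSPA8, and for HSPD1 to HSPE1; points are libraries 1 to 3 from left to right, and bars are means of 3. In polysomal RNA the first and second ratios are lower, and the third is higher, in all siEIF3Gs libraries than in any siCtrl library.

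The cofactors of HSP70 differed from each other in their pattern over the libraries. HSPH1, an HSP110 protein that releases nucleotide from HSP70, had the lowest mean of the 10 in each group. It was at 17.5, 65.9 and 106 TPM in siCtrl input and at 5.30, 8.56 and 3.12 TPM in siCtrl polysomal RNA, with every polysomal library below every input library. HSPH1 was 8.11-fold lower on polysomes in control cells on the log2(TPM + 1) scale (log2 change -3.02, SE 0.69, limma adjusted p = 0.0197), the largest difference of the 10 genes in this comparison. With size factors it was -2.02 (adjusted p = 0.00765) and with quantile normalization -2.36 (adjusted p = 0.0131).

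With siEIF3Gs, HSPH1 was at 68.0, 13.8 and 46.7 TPM in input and at 9.79, 8.10 and 24.7 TPM on polysomes. Input library 2 was below polysomal library 3, both of them among the 3 libraries that lay nearer to the other fraction, and the difference was not past the threshold (-1.43, SE 0.69, limma adjusted p = 0.262). Without the 3 libraries, a choice that by itself favours a difference between fractions, it was -2.53. In that fit 71.1% of all genes were called. The log2 change of HSPH1 with knockdown was -0.48 in input (SE 0.69) and 1.12 in polysomal RNA (SE 0.69, adjusted p = 0.650), with overlap in both.

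DNAJB1 is a J protein that brings unfolded clients to HSP70 and is itself a classical HSF1 target. It was at 86.8, 181 and 214 TPM in siCtrl input and at 95.8, 87.4 and 98.7 TPM in siEIF3Gs input, so the knockdown libraries lay close together and near the lowest control library. On polysomes it was at 166, 101 and 89.8 TPM with siCtrl and at 91.3, 113 and 67.6 TPM with siEIF3Gs, with overlap. The log2 change with knockdown was -0.67 in input (SE 0.35, 95% interval -1.42 to 0.08, limma adjusted p = 0.999993) and -0.37 in polysomal RNA (SE 0.35). Between fractions DNAJB1 differed by -0.38 (SE 0.35) in control and by -0.08 (SE 0.35) in knockdown cells, neither past the threshold, and both values were above 0 with size factors (0.71 and 0.47).

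HSP90AA1 and HSP90AB1 encode the cytosolic HSP90 proteins, of which the first is the more inducible and the second the more constitutive. HSP90AA1 was at 455, 1491 and 2318 TPM in siCtrl input and at 1236, 212 and 848 TPM in siEIF3Gs input. HSP90AB1 was at 337, 1228 and 1641 TPM in siCtrl input and at 1172, 549 and 1878 TPM in siEIF3Gs input. For both genes the lowest input libraries of their groups were siCtrl input 1 and siEIF3Gs input 2, which are among the 3 libraries nearer to the other fraction. The log2 change with knockdown in input RNA was -0.94 for HSP90AA1 (SE 0.69) and 0.28 for HSP90AB1 (SE 0.59), with limma adjusted p = 0.999993 for both.

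On polysomes HSP90AA1 was at 282, 359.7 and 105 TPM with siCtrl and at 373, 498 and 797 TPM with siEIF3Gs. HSP90AB1 was at 318, 160.1 and 101 TPM with siCtrl and at 532, 585 and 952 TPM with siEIF3Gs. The knockdown libraries were higher in every case, narrowly for HSP90AA1 and by a wide margin for HSP90AB1. The log2 change was 1.94 for HSP90AB1 (SE 0.59, 95% interval 0.67 to 3.22, unadjusted p = 0.00589) and 1.26 for HSP90AA1 (SE 0.69, unadjusted p = 0.0919), and limma's adjusted p was 0.650 for both. With size factors these values were 1.40 and 0.72.

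In control cells HSP90AA1 was 5.26-fold lower (log2 change -2.39, SE 0.69, limma adjusted p = 0.0349) and HSP90AB1 5.07-fold lower (log2 change -2.34, SE 0.59, adjusted p = 0.0261) in polysomal than in input RNA. With size factors these were -1.30 (adjusted p = 0.0481) and -1.25 (adjusted p = 0.0359). Polysomal and input libraries did not overlap for either gene. The gap was narrow for HSP90AB1, with 337 TPM in siCtrl input library 1 against 318 TPM in siCtrl polysomal library 1. In knockdown cells the differences were -0.20 (SE 0.69) and -0.67 (SE 0.59) with overlap. Without the 3 libraries, a choice that by itself favours a difference between fractions, they were -1.25 and -1.41. The difference between the siRNA effects in polysomal and input RNA was 2.20 for HSP90AA1 (SE 0.98, unadjusted p = 0.0428) and 1.67 for HSP90AB1 (SE 0.84), with adjusted p = 0.908 for both.

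The ratio of HSP90AA1 to HSP90AB1 was 1.35, 1.21 and 1.41 in siCtrl input and 1.05, 0.387 and 0.452 in siEIF3Gs input. HSP90AA1 thus exceeded HSP90AB1 in all control input libraries and in 1 of the 3 knockdown input libraries. All knockdown ratios were lower, by 1.22 on the log2 scale (2.33-fold, exact two-sided permutation p = 0.1). On polysomes the ratio was 0.887, 2.25 and 1.04 with siCtrl and 0.701, 0.852 and 0.837 with siEIF3Gs, again lower in all 3 but with a narrow gap (log2 difference -0.69, exact permutation p = 0.1). The adjusted p was 0.24 for both.

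HSPD1 (HSP60) and HSPE1 (HSP10) form the chaperonin of the mitochondrial matrix, HSPD1 as the barrel and HSPE1 as its lid. HSPD1 was at 160.4, 583 and 909.6 TPM in siCtrl input and at 619.6, 189 and 872 TPM in siEIF3Gs input, with overlap. On polysomes it was at 126, 134 and 46.45 TPM with siCtrl and at 242, 324 and 597 TPM with siEIF3Gs. All knockdown polysomal libraries were higher than all control ones, with a log2 change of 1.95 (SE 0.67, 95% interval 0.50 to 3.41, unadjusted p = 0.0125, limma adjusted p = 0.650). Without siEIF3Gs polysomal library 3 it was 1.59.

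HSPE1 was at 2244, 1677 and 2111 TPM in siCtrl input and at 2045, 911 and 930.3 TPM in siEIF3Gs input. A single knockdown library reached the control range, and the log2 change was -0.73 (SE 0.33, unadjusted p = 0.0456, limma adjusted p = 0.999993). On polysomes HSPE1 was at 1468, 2598 and 2658 TPM with siCtrl and at 881, 1379 and 1184 TPM with siEIF3Gs. All knockdown libraries were lower, with a log2 change of -0.94 (SE 0.33, 95% interval -1.65 to -0.22, unadjusted p = 0.0140, adjusted p = 0.650).

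Between fractions HSPD1 passed the test in control cells and HSPE1 did not, which by itself does not show that the partners differ. Their ratio, HSPD1 to HSPE1, overlapped between fractions in control cells (log2 difference -2.37, exact two-sided permutation p = 0.2, Benjamini-Hochberg adjusted p = 0.343). In knockdown cells this ratio overlapped too (log2 difference -0.29, exact permutation p = 0.8). In control cells HSPD1 was 4.73-fold lower on polysomes than in input (log2 change -2.24, SE 0.67, limma adjusted p = 0.0371), and HSPE1 differed by 0.12 (SE 0.33, adjusted p = 0.772). With size factors HSPD1 was at -1.15 and no longer past the threshold (adjusted p = 0.0537). In knockdown cells HSPD1 differed by -0.38 (SE 0.67) and HSPE1 by -0.09 (SE 0.33). Without the 3 libraries, a choice that by itself favours a difference between fractions, HSPD1 was at -1.39.

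The ratio of HSPD1 to HSPE1 was 0.0860, 0.0514 and 0.0175 in siCtrl polysomal libraries and 0.274, 0.235 and 0.505 in siEIF3Gs polysomal libraries. Every knockdown value was above every control value, by 2.91 on the log2 scale (7.49-fold, exact two-sided permutation p = 0.1, adjusted p = 0.24). Without the 3 libraries the difference was 2.57. In input RNA the ratio was 0.0715, 0.347 and 0.431 with siCtrl and 0.303, 0.207 and 0.937 with siEIF3Gs, which overlapped (exact permutation p = 0.6).

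HSPB1 (HSP27) is a small heat shock protein that holds unfolded proteins without using ATP. It varied least of the 10 genes over the 12 libraries, 2.54-fold from lowest to highest. It was at 620.2, 887 and 779 TPM in siCtrl input and at 515, 738 and 703 TPM in siEIF3Gs input, with overlap and a log2 change of -0.23 (SE 0.24). On polysomes it was at 1309, 1254 and 1221 TPM with siCtrl and at 925, 1082 and 641 TPM with siEIF3Gs. The control libraries were close together, all knockdown libraries were lower, and the log2 change was -0.55 (SE 0.24, 95% interval -1.06 to -0.04, unadjusted p = 0.0379, limma adjusted p = 0.650).

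HSPB1 was the only one of the 10 genes called higher on polysomes than in input in control cells, 1.67-fold (log2 change 0.74, SE 0.24, limma adjusted p = 0.0409), with no overlap. With size factors it was at 1.84 (adjusted p = 0.0160). Under quantile normalization it was at 0.54 and not past the threshold (adjusted p = 0.0993), so that the calls were 0 higher and 5 lower in place of 1 higher and 5 lower. HSPB1 was likewise not called when any single siCtrl library, input or polysomal, was left out. The limma adjusted p then ran from 0.0524 without siCtrl input library 1 (at 0.60) to 0.138 without siCtrl input library 3 (at 0.76). Over 28 alternatives HSPB1 was called in 12. In knockdown cells it differed by 0.42 (SE 0.24, adjusted p = 0.316). Without the 3 libraries, a choice that by itself favours a difference between fractions, it differed by 0.73.

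**Figure D3:**
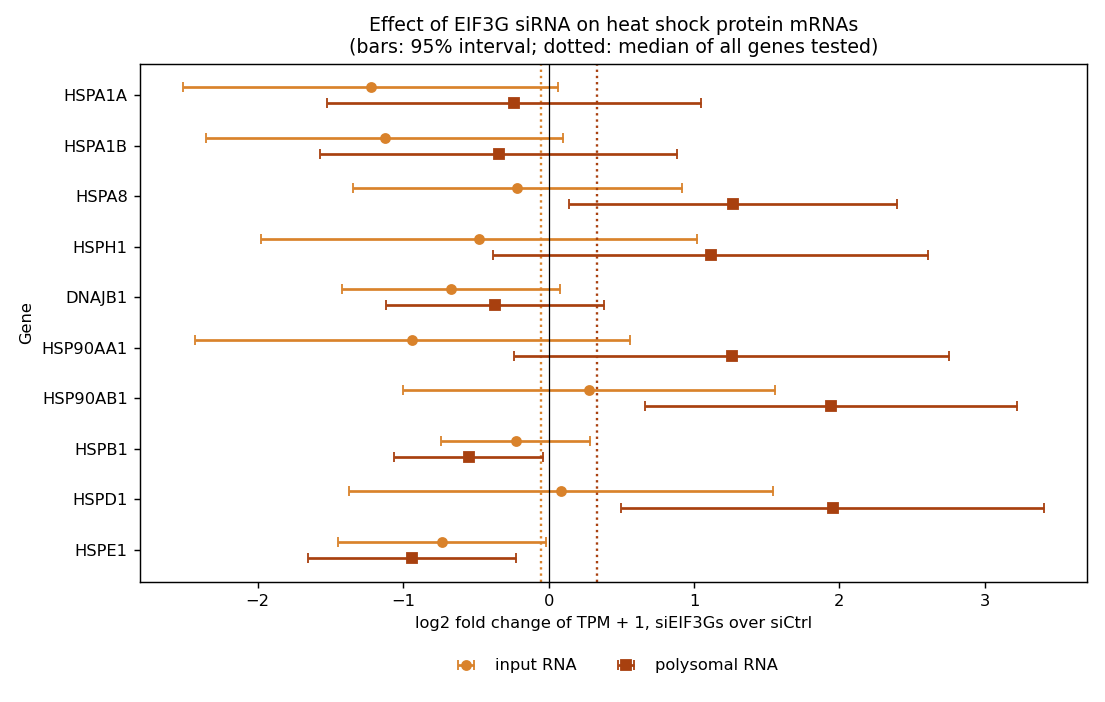
Log2 fold change of TPM + 1 for siEIF3Gs over siCtrl in input and in polysomal RNA, for each of the 10 heat shock protein mRNAs; points are limma estimates, bars are 95% intervals, and dotted lines are the medians of all 10605 genes tested. In input RNA the interval of HSPE1 alone leaves out 0, and in polysomal RNA the intervals of HSPA8, HSP90AB1 and HSPD1 lie above 0 and those of HSPB1 and HSPE1 below it, none with an adjusted p under 0.05.

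Over the 10 genes, 8 had a negative log2 change with knockdown in input RNA, where 57% of all genes did, with a median of -0.57 against -0.05 for all genes tested. HSPE1 had an unadjusted p under 0.05 (1.36% of all genes), and without siCtrl input library 1 there were 4 such genes. In polysomal RNA 5 of the 10 were positive, where 72.7% of all genes were, with a median of 0.44 against 0.33. At an unadjusted p under 0.05 there were 3 higher (HSPA8, HSP90AB1 and HSPD1) and 2 lower (HSPB1 and HSPE1), against 6.69% of all genes in either direction. That count was 1 without siCtrl polysomal library 3, and 2 without siCtrl polysomal library 2, siEIF3Gs polysomal library 1 or siEIF3Gs polysomal library 3. For the fits with a library left out, the share of all genes at such a p is not given here. Scaling moved the polysomal medians: with size factors that of the 10 was -0.06 and that of all genes -0.03, and with quantile normalization 0.10 and 0.03. HSPA1A and HSPA1B share reads but count separately in these medians. With both summed, the median of the 9 genes was -0.48 in input and 1.12 in polysomal RNA, against -0.05 and 0.33 for all genes.

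**Figure D4:**
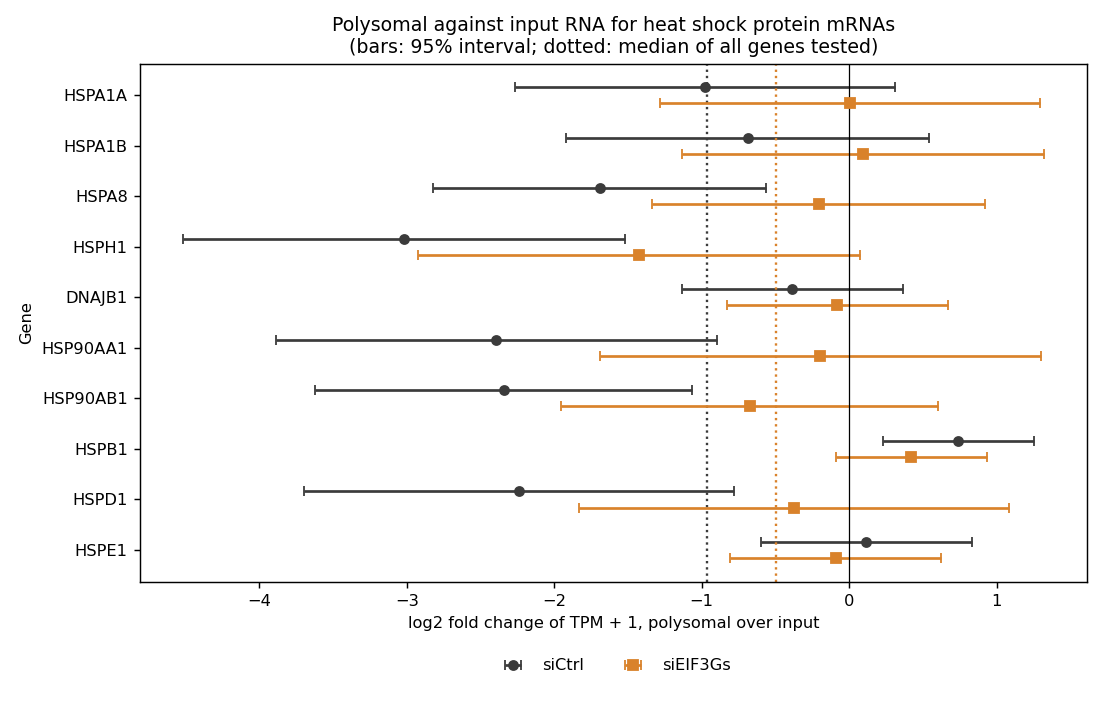
Log2 fold change of TPM + 1 for polysomal over input RNA in siCtrl and in siEIF3Gs cells, for each of the 10 heat shock protein mRNAs; points are limma estimates, bars are 95% intervals, and dotted lines are the medians of all genes tested, -0.96 and -0.49. With siCtrl, HSPH1, HSP90AA1, HSP90AB1, HSPD1 and HSPA8 lie below 0 and HSPB1 above it; with siEIF3Gs every interval includes 0.

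Between fractions the median of the 10 was -1.33 in control cells, against -0.96 for all genes tested, a difference of -0.37, and in knockdown cells it was -0.14 against -0.49. These medians moved with the scaling. In control cells that of the 10 was -0.24 against -0.10 with size factors and -1.42 against -0.13 with quantile normalization. In knockdown cells it was 0.41 against -0.03 with size factors and -0.37 against -0.06 with quantile normalization, so neither its sign nor its side of the median of all genes was the same under each scaling. With HSPA1A and HSPA1B summed and no rescaling, the median of the 9 genes was -1.69 in control and -0.20 in knockdown cells, against -0.96 and -0.49. Non-overlap between fractions in control cells was seen for 1 gene higher (16.9% of all genes) and 4 lower (28.9%), and in knockdown cells for none (22.1% in either direction). The 6 calls in control cells depended on single libraries: there were 0 without siCtrl input library 2 or 3 and 0 without siCtrl polysomal library 2 or 3, and 1 without siCtrl polysomal library 1. Leaving out a knockdown library also lowered the count, to 2 without siEIF3Gs polysomal library 1 and 3 without library 2, since all groups share an estimate of the spread. For the fits with a single library left out, the share of all genes called is not given here. A loss of calls particular to the 10 genes can thus not be read from these counts. Without the 3 libraries that lay nearer to the other fraction, 9 of the 10 were called in control cells and 5 in knockdown cells, but so were 75.1% and 71.1% of all genes. All but HSPE1 were then called in control cells. In knockdown cells the 5 were HSPH1, HSP90AA1, HSP90AB1 and HSPD1, which were lower on polysomes, and HSPB1, which was higher.

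TPM allow levels to be ordered between genes, since they are scaled by transcript length. In siCtrl input the order of the mean levels was HSPE1 (2011 ± 296 TPM, SD, n = 3), HSP90AA1 (1421 ± 934), HSP90AB1 (1069 ± 667), HSPA8 (1020 ± 629), HSPB1 (762 ± 134), HSPD1 (551 ± 376), DNAJB1 (161 ± 65.9), HSPA1A (148 ± 80.0), HSPA1B (112 ± 57.1) and HSPH1 (63.1 ± 44.3). The library values of all neighbours in this order overlapped. In siCtrl polysomal libraries HSPE1 (2242 ± 671 TPM) and HSPB1 (1261 ± 44.6) came first, without overlap between these 2, and HSPA8 (293.8 ± 161) followed at a distance. The 10 mRNAs together made up 0.327% (siEIF3Gs input 2) to 1.00% (siCtrl input 3) of a library.

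The 10 genes did not vary as a block. After each profile over the 12 libraries was centred on its mean, the root mean square difference of log2(TPM + 1) was smallest between HSPA1A and HSPA1B (0.13), which share reads, then between HSP90AB1 and HSPD1 (0.31) and between HSPA1B and DNAJB1 (0.40). It was largest between HSPH1 and HSPB1 (1.77) and between HSP90AB1 and HSPE1 (1.59). Genes outside the 10 were ranked in the same way for 3 profiles, over 7251 genes. The nearest to HSPA8 were LIPA (0.12), PRIM2 (0.19) and FTSJ3 (0.20), where the median gene was at 0.78. The nearest to HSPB1 were CBX7 (0.087), CYB5R3 (0.097) and HDAC3 (0.11), with a median of 0.80. For the sum of HSPA1A and HSPA1B they were PPP1R13L (0.38), SIPA1L3 (0.40) and SERPINA1 (0.44), with a median of 1.00. All of these likenesses are over the same 12 libraries and share their fraction and library differences.

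The wider chaperone system was read from 9 lists with 93 genes, of which 84 were in the table and 74 were tested. None passed the test with knockdown in either fraction, and their median log2 change was -0.02 in input and 0.53 in polysomal RNA, against -0.05 and 0.33 for all genes. In polysomal RNA 61 of the 74 were positive, where 72.7% of all genes were. The 8 subunits of TRiC, the chaperonin of the cytosol, were all positive in polysomal RNA, from 1.16 to 1.88 for CCT2 (SE 0.66, limma adjusted p = 0.650), with a median of 1.58. HSPA9, the HSP70 of the mitochondrial matrix, had the largest value of the 74, 2.31 (SE 0.77, adjusted p = 0.650), and PFDN4, a prefoldin subunit, the lowest, -1.11 (SE 0.44). The transcription factors HSF1 and HSF2 were at -0.53 (SE 0.28) and 0.97 (SE 0.59) in polysomal RNA, and at -0.02 and 0.08 in input. HSF4, with a mean of 1.74 TPM in siCtrl input, had the largest absolute change in input of the 3 HSF genes tested, -0.27 (SE 0.29). Between fractions 30 of the 74 were called in control cells, 9 higher and 21 lower on polysomes, and 6 in knockdown cells, 3 higher and 3 lower, where 36.9% and 3.14% of all genes were called. In control cells the largest differences were those of HSPA4, an HSP110 protein like HSPH1, at -2.66 (SE 0.75, adjusted p = 0.0328) and of HSPA9 at -2.59 (SE 0.77, adjusted p = 0.0363).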

How the data were processed

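The deposited table gives TPM per gene and library. The authors computed these TPM with RSEM 1.3.1 on genome build GRCh38.p13, as far as the submitters' processing notes name tools; the sources used here give neither aligner, annotation, filters nor numbers of reads. TPM are relative within a library, and no rescaling was applied. Values were tested as log2(TPM + 1), a scale that understates changes of low genes, for the 10605 genes whose mean over the libraries reached 1 TPM. A model with 4 group means was fitted over all 12 libraries with limma 3.58.1 (R 4.3.3, trend, 8 residual degrees of freedom), with Benjamini-Hochberg adjustment over all genes tested and a threshold of 0.05. The model was also run on simulated data with independent noise of capped size and no differences shared by the genes of a library. That run does not check the model under the spread of these libraries. Ratios within libraries were compared by exact two-sided permutation (Python 3.11.15, scipy 1.17.1). Promoter sequences come from RefSeq, GRCh38.p14. The 10 genes, the chaperone lists and the 3 libraries set aside in an alternative were chosen with earlier results of these data known. Beyond these genes and EIF3G, the text names at most the 2 genes of a list with the largest absolute changes in a comparison and the 3 nearest profiles. HSF1 is an exception in input RNA, where HSF4 and HSF2 had larger absolute changes. Alternatives were pseudocounts, filters, scalings, fits and leaving out libraries. Some marker genes are not reported here.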

Additional observations from a re-analysis of the deposited data

How the results depend on the processing

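The number of heat shock genes called between fractions in control cells, 6, was 1 with no filter and 1 when only the groups compared were fitted; the filter changes how many genes are tested and the second fit uses fewer libraries. It ranged from 0 to 8 with a library or a replicate number left out. In knockdown cells it was 5, not 0, without the 3 libraries nearer to the other fraction, where 71.1% of all genes were called. For the other alternatives in this paragraph the share of all genes called is not given here. With knockdown, no gene was called in input or polysomal RNA under any alternative run. The deviations of same-numbered libraries had correlations of -0.69 to 0.71, and 4 of 12 libraries correlated best with their own number. Part of each lysate was kept as input, so input and polysomal libraries may be pairs. With 3 libraries per group, these correlations cannot settle whether the numbers pair them. The main fit did not pair libraries. With a replicate block, 5 genes rather than 6 were called between fractions in control cells, HSPA8 being lost (adjusted p = 0.0538), and no other count of calls moved.

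Signs that turned belonged to values that were not called, and the cause was not tested. With median-of-ratios size factors the fraction difference was 0.11 for HSPA1A, 0.40 for HSPA1B and 0.71 for DNAJB1 in control cells, 0.35 for HSPA8, 0.47 for DNAJB1, 0.36 for HSP90AA1, 0.18 for HSPD1 and 0.46 for HSPE1 in knockdown cells, and the difference between siRNA effects for DNAJB1 was -0.24. In knockdown cells the fraction difference of HSPA1A was -0.039 with quantile normalization and -0.20 with ribosomal protein genes left out of the total, where HSPA1B was at -0.11. Without the 3 libraries, the knockdown change in polysomal RNA was 0.35 for HSPA1A and 0.24 for HSPA1B, the fraction difference of DNAJB1 in knockdown cells 0.062, and the difference between siRNA effects for HSPB1 0.13. That alternative was chosen for the ratios after seeing the data.

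With libraries or replicate numbers left out in turn, the knockdown change in input ranged from -1.03 to 0.32 for HSPA8, -1.67 to 0.37 for HSPH1, -0.48 to 1.00 for HSP90AB1 and -0.84 to 0.94 for HSPD1, and in polysomal RNA from -0.93 to 0.35 for HSPA1A and -0.99 to 0.24 for HSPA1B. The difference between siRNA effects ranged from -0.061 to 1.80 for HSPA1B, -0.14 to 0.95 for DNAJB1 and -0.49 to 0.18 for HSPE1. The fraction difference in control cells ranged from -1.04 to 0.045 for DNAJB1 and -0.14 to 0.48 for HSPE1. In knockdown cells it ranged from -0.53 to 0.59 for HSPA1A, -0.42 to 0.68 for HSPA1B, -0.71 to 0.066 for HSPA8, -0.30 to 0.15 for DNAJB1, -0.95 to 0.57 for HSP90AA1, -1.03 to 0.11 for HSPD1 and -0.43 to 0.47 for HSPE1. The log2 fraction difference of the ratio of HSP90AA1 to HSP90AB1 in control cells ranged from -0.46 to 0.21, and in knockdown cells that of HSPA1A plus HSPA1B to HSPA8 from -0.12 to 0.74 and that of HSPD1 to HSPE1 from -0.74 to 0.35. Groups of 3 and an unknown depth limit all of these values.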
